A study of Homo sapiens with 6 samples.

Results

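The genes of sterol synthesis and of the SREBP pathway were described in CB1-overexpressing and Vector MDA-MB-231 cells. The 33 genes were given by symbol, as protein-coding rows of the deposited tables, and not by any measured value. They made up 33 of 58735 annotated genes, and all 33 passed the abundance minimum and were among the 15289 genes tested. Of these, 7 regulate the pathway, 19 are enzymes of the mevalonate, squalene and post-lanosterol steps, 2 bind or move sterols and 5 belong to the fatty acid arm.

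MDA-MB-231 is a triple-negative breast cancer line. The series holds 3 CB1 libraries, from cells overexpressing the cannabinoid receptor encoded by CNR1, and 3 Vector libraries, from cells carrying the empty vector. Poly(A) RNA was sequenced, and counts and FPKM values per gene were deposited. The study's methods describe the CB1 line as made by stable lentiviral transduction with a pCDH construct. The treatment label reads CB1 for the CB1 libraries and DMSO for the Vector libraries. It does not say if vehicle was given to the CB1 cells too. Nothing in the labels says that the libraries were separate cultures, and the p-values therefore rest on a spread among libraries that may be technical only. If each group is 1 line, an effect of CB1 and one of the line itself cannot be told apart.

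Cells make cholesterol from acetyl-CoA through mevalonate, squalene and lanosterol. The enzymes of this route are transcribed under the control of the SREBP factors, which are made as precursors in the membrane of the endoplasmic reticulum. The escort protein SCAP carries a precursor to the Golgi apparatus, where the proteases encoded by MBTPS1 and MBTPS2 release the active factor. When sterols are plentiful, the INSIG proteins hold SCAP back. SREBP-2, encoded by SREBF2, is best known for sterol genes and SREBP-1, encoded by SREBF1, for fatty acid genes. INSIG1 is itself a known target of the factors.

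Total counts were 16957881 to 18833661 per library. CNR1 had 379, 420 and 414 CPM in CB1 libraries, against 0.399, 0.335 and 0.227 CPM in Vector libraries, so the labels held in every library. CPM here is counts per 1000000 of the TMM-scaled library size. The 7 genes read as markers of mesenchymal breast cancer lines were VIM, CD44, KRT18, KRT81, MSN, CAV1 and AXL. Of these, 5 rose and 0 fell in the edgeR test, where 24.4% of all genes tested rose and 25.4% fell. At an unadjusted p under 0.05, 5 were higher and 0 lower, against 4171 and 4384 of all 15289 genes tested. The largest rise was of a keratin, KRT81 (log2 change 2.58), KRT18 rose too, and MSN and CAV1 did not pass the threshold. The list thus does not measure a mesenchymal state alone. The 7 summed to 6228 to 6682 CPM in CB1 libraries and 4685 to 4810 CPM in Vector libraries. Of 6 luminal markers 3 were tested, GATA3 rose and EPCAM fell, and the 6 summed to 17.4 to 21.5 CPM in CB1 libraries and 22.6 to 24.8 CPM in Vector libraries, with ESR1 and PGR below 1 CPM in every library. Another 5 genes were read as markers of an embryonic kidney line of the kind that produces lentivirus. Of these, NEFL, NEFM and INA passed the abundance minimum only through the CB1 libraries, so no count of calls is given. The 5 summed to 18.9 to 21.0 CPM in CB1 libraries and 1.34 to 2.28 CPM in Vector libraries. Whether these transcripts came from cells of that line was not tested. The part of these markers in the results for the sterol genes was not tested. In bulk RNA, fewer cells of a type and less RNA per cell cannot be told apart.

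Most sterol genes were lower in CB1 cells. In the edgeR quasi-likelihood test, with a threshold of 0.05 on p-values adjusted over all genes tested, 21 of the 33 fell, where 25.4% of all genes tested fell. SCAP was the 1 that rose, where 24.4% of all genes rose. The median log2 change was -0.49 over the 33 genes and -0.0020 over all genes tested. All 3 CB1 libraries lay below all 3 Vector libraries for 24 of the 33, where this held for 30.2% of all genes, and above them for 1, where it held for 28.6% of all genes. The other 11 did not pass the threshold, and 8 of these had a negative log2 change.

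**Figure D1:**
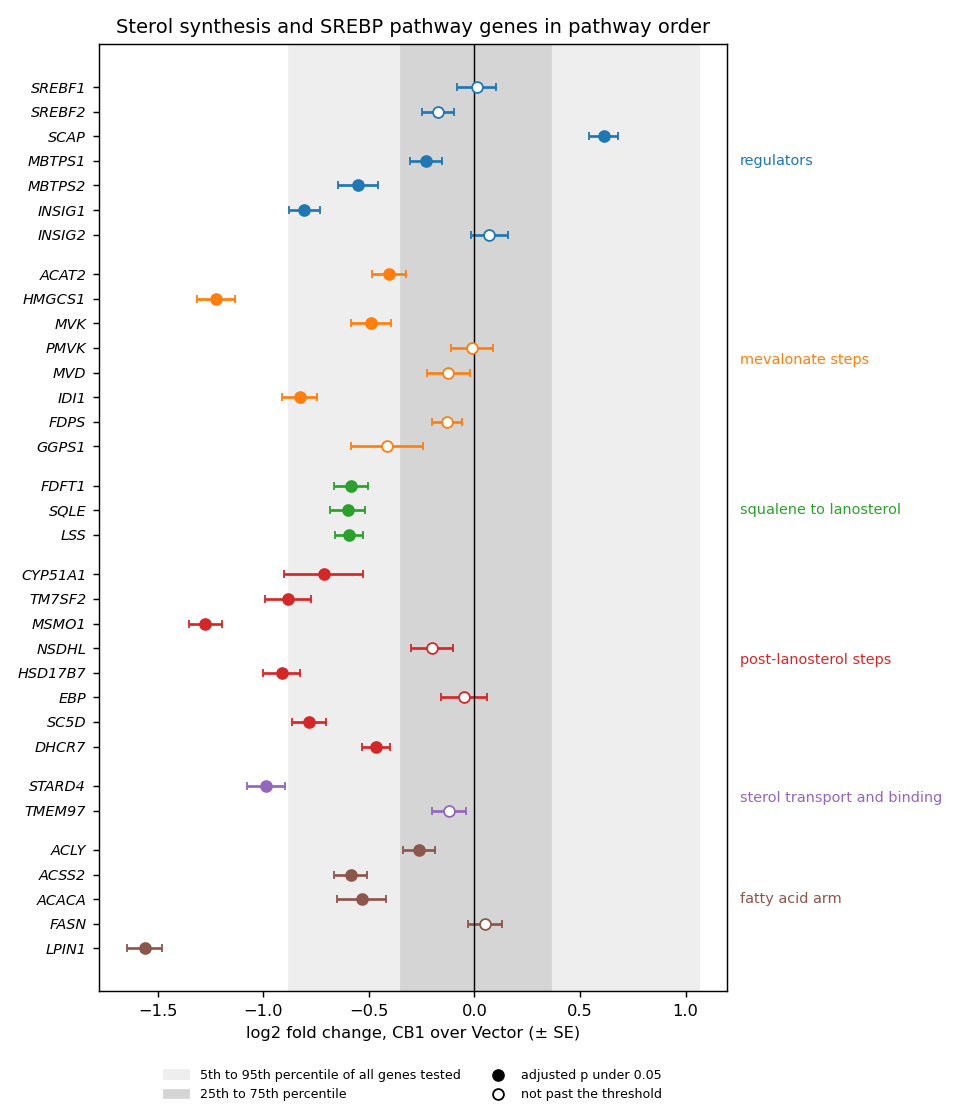
Log2 fold change of CB1 over Vector (± SE, edgeR, n = 3 libraries each) for the 33 genes, from regulators at the top to the fatty acid arm at the bottom. Filled points passed the threshold, and grey bands hold the middle of all genes tested. LPIN1 at -1.56, MSMO1 at -1.27 and HMGCS1 at -1.22 lie farthest to the left, and SCAP at 0.61 is the only filled point right of 0.

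The regulators did not move together. SCAP, the sterol-sensing escort (chromosome 3, 47413694 to 47477126, minus strand of GRCh38), had 152, 144 and 143 CPM in CB1 libraries, against 98.0, 98.2 and 91.1 CPM in Vector libraries. Every CB1 library lay above every Vector library, and SCAP was 1.53-fold higher in CB1 cells (log2 change 0.61 ± 0.070 SE, edgeR adjusted p = 2.29e-05). INSIG1, the retention factor that is also a target of the pathway (chromosome 7, 155297776 to 155310235, plus strand), had 89.7, 81.8 and 90.02 CPM in CB1 libraries, against 144, 156 and 157 CPM in Vector libraries. It fell 1.75-fold without overlap between the groups (log2 change -0.81 ± 0.073, edgeR adjusted p = 4.94e-06). INSIG2, its relative on chromosome 2 (118088452 to 118110997, plus strand), had 25.6, 22.9 and 25.7 CPM in CB1 libraries, against 23.5, 24.1 and 22.9 CPM in Vector libraries. The INSIG2 libraries overlapped, and the log2 change of 0.07 ± 0.087 did not pass the threshold (edgeR adjusted p = 0.518).

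The transcripts of the SREBP factors themselves differed little. SREBF2 (chromosome 22, 41833079 to 41907308, plus strand) had 197, 233 and 211 CPM in CB1 libraries, against 243, 244 and 235 CPM in Vector libraries. The groups did not overlap, but CB1 replicate 2 was close to the lowest Vector library, and the log2 change of -0.17 ± 0.075 did not pass the threshold (edgeR adjusted p = 0.074). SREBF2 passed it under 3 of 15 alternative settings. These were library totals alone (log2 change -0.25, edgeR adjusted p = 0.0161), no abundance minimum (-0.22, edgeR adjusted p = 0.0296) and omission of CB1 replicate 2 (-0.24, edgeR adjusted p = 0.0260). SREBF1 (chromosome 17, 17810399 to 17837002, minus strand) had 109, 99.8 and 84.2 CPM in CB1 libraries, against 102, 94.8 and 94.8 CPM in Vector libraries. The CB1 libraries spanned all Vector libraries, and the log2 change was 0.01 ± 0.093 (edgeR adjusted p = 0.933), with a sign that turned under 8 of 15 alternative settings. Between the proteases, MBTPS2 fell 1.46-fold (22.9, 22.9 and 26.7 CPM in CB1 libraries, against 37.6, 35.9 and 32.5 CPM in Vector libraries). MBTPS1 fell 1.17-fold (edgeR adjusted p = 0.0248), and this call was lost under 4 of 15 alternatives, among them the omission of any 1 Vector library (adjusted p up to 0.119).

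**Figure D2:**
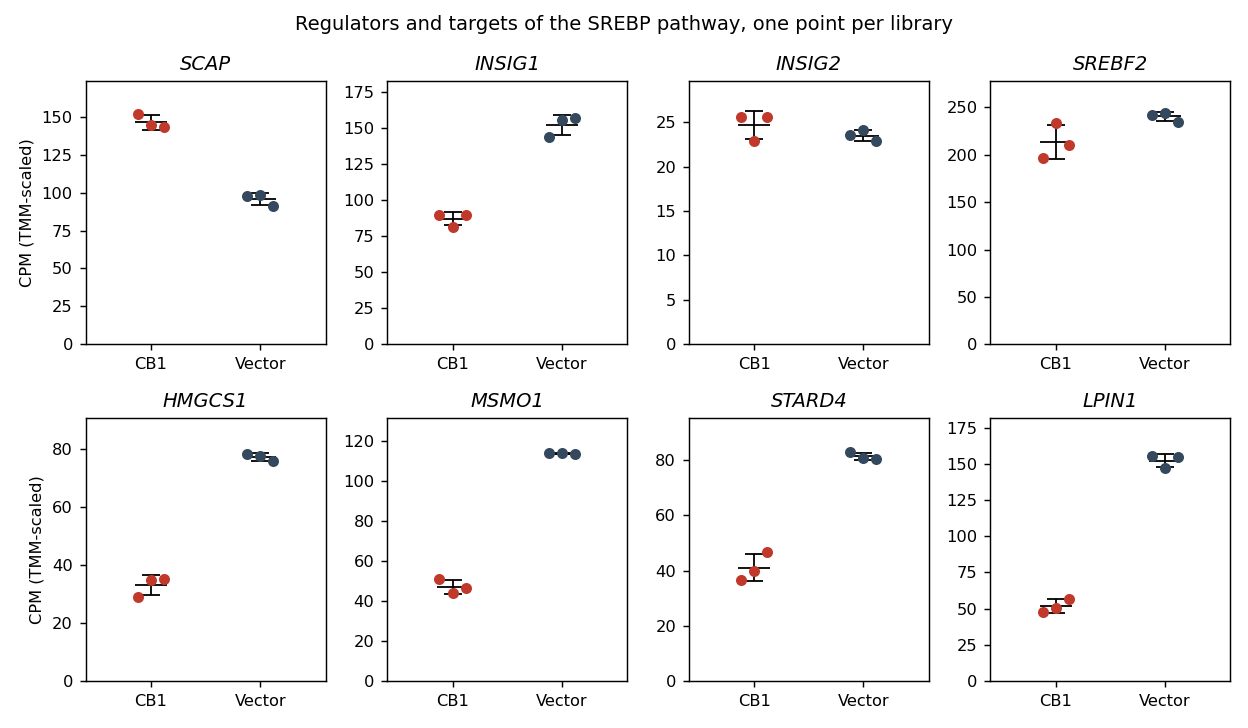
TMM-scaled CPM of 8 genes, 1 point per library, CB1 left of Vector, with the mean and SD of 3 libraries as bars and a vertical axis from 0. SCAP is higher in every CB1 library, INSIG1, HMGCS1, MSMO1, STARD4 and LPIN1 are lower in every CB1 library, and the INSIG2 points overlap.

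The INSIG pair was also compared within each library, which needs no scaling between libraries. The ratio of INSIG1 to INSIG2 in FPKM was 3.79, 3.87 and 3.80 in CB1 libraries, against 6.63, 6.995 and 7.44 in Vector libraries. The groups were well apart, with a ratio 1.84-fold lower in CB1 cells (difference of log2 ratios -0.88, exact two-sided permutation p = 0.1, the smallest that 3 against 3 libraries can give). The ratio of SREBF1 to SREBF2 was 0.523, 0.403 and 0.376 in CB1 libraries, against 0.394, 0.365 and 0.380 in Vector libraries. Its groups overlapped (difference of log2 ratios 0.18, exact permutation p = 0.3), and without CB1 replicate 1 the difference was 0.04. With the ratio of sterol to fatty acid enzymes given further on, 3 ratios were tested, and with Benjamini-Hochberg adjustment over the 3 the exact permutation p was 0.15 for the INSIG ratio, 0.3 for the SREBF ratio and 0.15 for the ratio of sterol to fatty acid enzymes.

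Promoter sequences are shown for the INSIG pair and for SREBF2. Of the 29 genes with a window, SREBF2 alone held the full sterol regulatory element and was chosen for it. MSMO1 and HMGCS1 are also shown and were chosen after their large changes were seen. The sequences are RefSeq windows on GRCh38.p14, from 250 bases before to 50 bases after an annotated start. Capitals mark matches to the sterol regulatory element TCACNCCAC, to its shorter form CACNCCAC, which lies within it, and to the NF-Y box CCAAT, each on either strand. SREBF2 is chr22:41832855-41833154 (plus strand), INSIG1 is chr7:155297628-155297927 (plus strand), INSIG2 is chr2:118088221-118088520 (plus strand, the first of its 2 starts), MSMO1 is chr4:165327419-165327718 (plus strand) and HMGCS1 is chr5:43313363-43313662 (minus strand, the upstream one of its 2 starts).
SREBF2: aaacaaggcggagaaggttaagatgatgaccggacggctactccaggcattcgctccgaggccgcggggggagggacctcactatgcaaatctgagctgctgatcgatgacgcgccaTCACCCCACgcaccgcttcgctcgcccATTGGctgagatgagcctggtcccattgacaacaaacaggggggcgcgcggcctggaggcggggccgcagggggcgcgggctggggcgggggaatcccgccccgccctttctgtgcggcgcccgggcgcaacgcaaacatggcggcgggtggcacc
INSIG1: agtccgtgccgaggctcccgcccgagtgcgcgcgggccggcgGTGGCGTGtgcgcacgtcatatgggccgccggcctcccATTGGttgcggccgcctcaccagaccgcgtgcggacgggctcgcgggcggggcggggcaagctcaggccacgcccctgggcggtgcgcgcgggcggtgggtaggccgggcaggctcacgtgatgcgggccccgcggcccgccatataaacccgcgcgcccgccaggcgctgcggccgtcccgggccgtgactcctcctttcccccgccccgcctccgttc
INSIG2: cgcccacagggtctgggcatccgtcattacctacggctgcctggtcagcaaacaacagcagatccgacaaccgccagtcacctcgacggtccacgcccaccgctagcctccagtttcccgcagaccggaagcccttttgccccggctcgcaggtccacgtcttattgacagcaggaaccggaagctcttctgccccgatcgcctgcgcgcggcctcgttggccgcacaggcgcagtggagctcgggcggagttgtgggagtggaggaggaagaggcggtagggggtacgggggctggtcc
MSMO1: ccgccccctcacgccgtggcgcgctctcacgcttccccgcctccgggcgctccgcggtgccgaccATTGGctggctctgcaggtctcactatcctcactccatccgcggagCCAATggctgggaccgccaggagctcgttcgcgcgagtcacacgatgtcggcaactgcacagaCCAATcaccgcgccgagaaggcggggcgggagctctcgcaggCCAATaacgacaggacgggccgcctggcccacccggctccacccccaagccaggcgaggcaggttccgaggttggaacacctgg
HMGCS1: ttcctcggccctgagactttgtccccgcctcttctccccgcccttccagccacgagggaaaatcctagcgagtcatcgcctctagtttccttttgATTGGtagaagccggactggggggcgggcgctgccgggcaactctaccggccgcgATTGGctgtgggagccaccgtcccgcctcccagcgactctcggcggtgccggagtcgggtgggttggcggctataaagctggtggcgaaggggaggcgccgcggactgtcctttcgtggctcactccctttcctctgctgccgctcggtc
The INSIG1 window held 1 NF-Y box and 1 short element, whereas neither INSIG2 start held any of these letters. The MSMO1 window held 4 NF-Y boxes. The HMGCS1 window shown held 2, and that of its other start held 0. LPIN1 is not shown, although it fell further than MSMO1 and HMGCS1 (log2 change -1.56, against -1.27 and -1.22). None of the LPIN1 windows held an NF-Y box or either form of the sterol regulatory element. The regulators SCAP and SREBF1 are not shown either, and their windows held none of these matches.

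Windows were found for 29 of the 33 genes. An NF-Y box stood in 21 of these 29 (72.4%), against 43.1% of 9732 other tested genes and 39.7% of all 27305 genes in the table. Of the 21 genes with the box 14 fell, with a median log2 change of -0.53. Of the 8 without it 4 fell and SCAP rose, with a median of -0.12. These 8 were the regulators SREBF1, SCAP, MBTPS1, MBTPS2 and INSIG2, and PMVK, CYP51A1 and LPIN1. The box stood in 14 of the 16 enzymes of the mevalonate, squalene and post-lanosterol steps that had a window. The medians with and without the box thus also set mostly enzymes against mostly regulators. Genes with the box that did not pass the threshold included NSDHL, MVD, FDPS, EBP and TMEM97. Of all genes tested 25.4% fell, but falls of other genes were not split by this box. A link of the box to the falls was not tested. The full sterol element stood in SREBF2 alone, 1 of 29, against 146 of 9732 other tested genes. Its shorter form, a motif added after the other matches were seen, stood in SREBF2, INSIG1, IDI1, SC5D and ACACA, 5 of 29, against 7.69% of other tested genes. The GC box GGGCGG stood in 26 of 29, against 77.7%, and the E-box CACGTG in 4 of 29, against 12.65%. A match is a description of the letters and not of binding.

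The 19 enzymes from ACAT2 to DHCR7, called sterol enzymes here, all had negative log2 changes. They include GGPS1, whose product serves protein prenylation rather than sterols. Of the 19, 13 fell and 0 rose in the edgeR test, where 25.4% of all genes tested fell and 24.4% rose. At an unadjusted p under 0.05, 14 were lower and 0 higher, against 4384 and 4171 of all 15289 genes tested. DESeq2 and limma-voom also called 13 lower and 0 higher. The median log2 change was -0.58. Their summed level was 283, 259 and 246 FPKM in CB1 libraries, against 368, 381 and 380 FPKM in Vector libraries, which gave means of 262.7 ± 18.5 and 376.2 ± 7.46 FPKM (SD, n = 3 each). The sum in CB1 cells was thus 0.698 times that in Vector cells, and every CB1 library lay below every Vector library. Without GGPS1, left out after seeing the data, 13 of 18 fell, the median log2 change was -0.59 and the sum in CB1 cells was again 0.698 times that in Vector cells.

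In the mevalonate steps, which build the isoprenoid units, 4 of 8 enzymes fell (median log2 change -0.41), against 25.4% of all genes tested. HMGCS1, the cytosolic HMG-CoA synthase, had 29.01, 34.8 and 35.2 CPM in CB1 libraries, against 78.2, 77.5 and 75.6 CPM in Vector libraries. This was a 2.33-fold fall with wide separation (log2 change -1.22 ± 0.088, edgeR adjusted p = 1.08e-06). IDI1, which interconverts the isoprenoid building blocks, had 57.8, 50.7 and 49.8 CPM in CB1 libraries, against 88.9, 97.8 and 94.1 CPM in Vector libraries, a 1.77-fold fall (edgeR adjusted p = 8.85e-06). Mevalonate kinase, MVK, fell 1.40-fold, with 41.3, 34.9 and 31.9 CPM in CB1 libraries, against 49.0, 50.7 and 51.9 CPM in Vector libraries. ACAT2, the cytosolic acetoacetyl-CoA thiolase that starts the route, fell 1.32-fold, with 78.6, 76.3 and 69.5 CPM in CB1 libraries, against 92.5, 106 and 98.6 CPM in Vector libraries. In all 4 the groups were apart.

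The other 4 mevalonate enzymes did not pass the threshold. PMVK, the next kinase, had a log2 change of -0.01 ± 0.10, MVD, the decarboxylase, -0.12 ± 0.10, and FDPS, which makes farnesyl diphosphate, -0.13 ± 0.072 (edgeR adjusted p = 0.927, 0.337 and 0.159). GGPS1, which makes geranylgeranyl diphosphate, had 9.55, 6.10 and 9.23 CPM in CB1 libraries, against 10.6, 12.6 and 9.83 CPM in Vector libraries. Its groups did not overlap, yet CB1 replicate 1 came within 1 CPM of the lowest Vector library and the log2 change of -0.41 ± 0.17 missed the threshold (edgeR adjusted p = 0.060).

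All 3 enzymes from squalene to lanosterol fell, against 25.4% of all genes tested, and by nearly the same amount. FDFT1, squalene synthase and the first enzyme committed to sterols, had 208, 191 and 168 CPM in CB1 libraries, against 272, 287 and 289 CPM in Vector libraries. SQLE, squalene epoxidase, had 26.2, 26.1 and 29.6 CPM in CB1 libraries, against 42.0, 40.8 and 41.3 CPM in Vector libraries. LSS, which closes the rings to give lanosterol, had 93.9, 92.8 and 90.3 CPM in CB1 libraries, against 140, 137 and 140 CPM in Vector libraries. The falls were 1.499-fold, 1.52-fold and 1.51-fold in this order, without overlap (edgeR adjusted p = 9.75e-05, 9.16e-05 and 1.99e-05).

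After lanosterol, 6 of 8 enzymes fell (median log2 change -0.75), against 25.4% of all genes tested. MSMO1, the methylsterol monooxygenase, had 50.8, 43.7 and 46.5 CPM in CB1 libraries, against 114, 114 and 113 CPM in Vector libraries. It fell 2.42-fold, the largest fall among the 19 enzymes, and was nearly constant among Vector libraries (log2 change -1.27 ± 0.078, edgeR adjusted p = 2.78e-07). HSD17B7, a ketoreductase of the same demethylation steps, had 18.99, 17.3 and 18.3 CPM in CB1 libraries, against 34.6, 32.1 and 35.9 CPM in Vector libraries, a 1.88-fold fall. TM7SF2, a sterol reductase, had 21.7, 16.5 and 17.3 CPM in CB1 libraries, against 35.4, 31.9 and 34.8 CPM in Vector libraries, a 1.84-fold fall. SC5D, a sterol desaturase near the end of the route, fell 1.72-fold, with 24.8, 25.3 and 25.9 CPM in CB1 libraries, against 42.8, 45.9 and 42.1 CPM in Vector libraries.

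DHCR7, the reductase of the final step of one branch, fell 1.38-fold (log2 change -0.46 ± 0.066). CYP51A1, the lanosterol demethylase, fell 1.64-fold at low counts, with 5.74, 9.26 and 11.1 CPM in CB1 libraries, against 15.6, 13.1 and 14.3 CPM in Vector libraries (log2 change -0.71 ± 0.19, edgeR adjusted p = 0.00687). It varied more among CB1 libraries than any enzyme above. NSDHL, the dehydrogenase of the demethylation steps, and EBP, a sterol isomerase, did not pass the threshold, with log2 changes of -0.20 ± 0.098 and -0.05 ± 0.11.

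**Figure D3:**
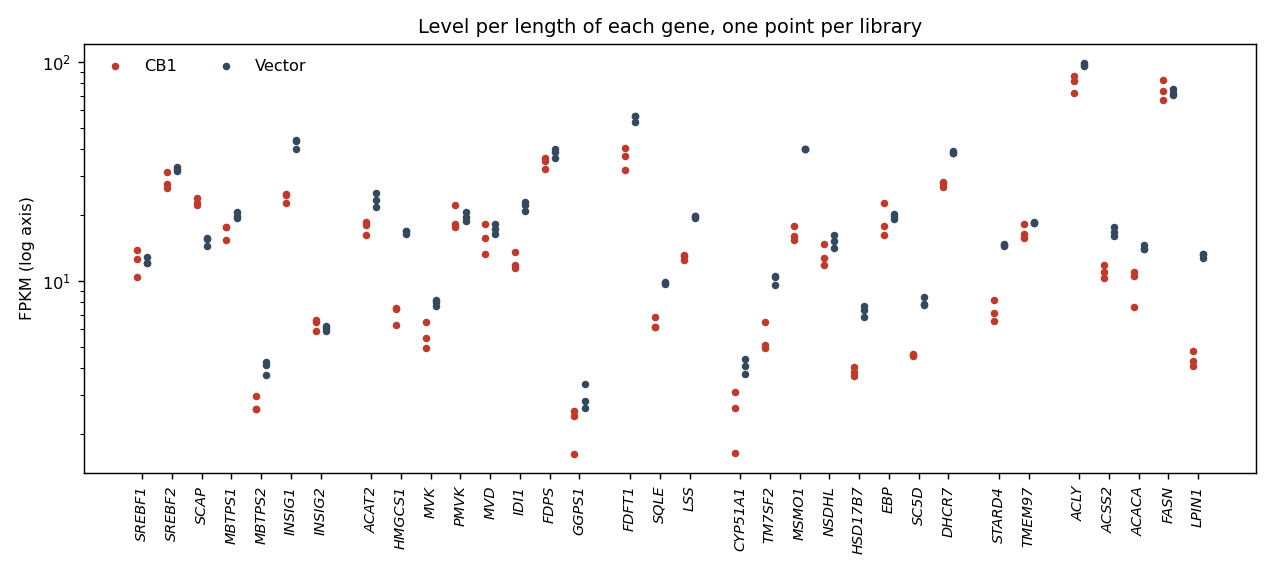
FPKM on a log axis for the 33 genes in pathway order, 1 point per library, CB1 left of Vector for each gene. ACLY and FASN are highest in both groups, and the CB1 points lie below the Vector points for HMGCS1, MSMO1, SC5D and LPIN1 but above them for SCAP.

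STARD4, which carries cholesterol between membranes, had 36.7, 39.9 and 46.5 CPM in CB1 libraries, against 82.8, 80.9 and 80.4 CPM in Vector libraries. It fell 1.98-fold with no overlap (log2 change -0.99 ± 0.091, edgeR adjusted p = 5.28e-06). Its antisense neighbour STARD4-AS1 also fell (log2 change -0.96, edgeR adjusted p = 0.00493), and without strand in the counting their reads cannot be told apart where they overlap, which is 2.18% of the exon bases of STARD4. TMEM97, a sterol-regulated membrane protein, had 54.6, 47.1 and 49.8 CPM in CB1 libraries, against 54.7, 55.1 and 54.8 CPM in Vector libraries. CB1 replicate 1 was at the Vector level, and the log2 change of -0.12 ± 0.079 did not pass the threshold (edgeR adjusted p = 0.229).

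The fatty acid arm held the largest fall of the 33 genes. LPIN1, a phosphatidate phosphatase and known SREBP target (chromosome 2, 11677595 to 11827409, plus strand), had 47.5, 50.5 and 56.9 CPM in CB1 libraries, against 155, 147 and 155 CPM in Vector libraries. It was 2.95-fold lower in CB1 cells (log2 change -1.56 ± 0.082, edgeR adjusted p = 9.88e-08), and 0.85% of all genes tested had a log2 change as low or lower. ACSS2, which makes acetyl-CoA from acetate, had 57.9, 62.9 and 55.8 CPM in CB1 libraries, against 85.0, 92.3 and 87.7 CPM in Vector libraries, a 1.501-fold fall. ACACA, acetyl-CoA carboxylase, had 96.8, 141 and 137 CPM in CB1 libraries, against 179, 178 and 186 CPM in Vector libraries. It fell 1.45-fold, and CB1 replicate 1 lay well below the other CB1 libraries. ACLY, the citrate lyase that supplies both routes, fell 1.20-fold (371, 442 and 431 CPM in CB1 libraries, against 494, 502 and 497 CPM in Vector libraries, edgeR adjusted p = 0.0116), a call lost without Vector replicate 2 (adjusted p = 0.0548). FASN, fatty acid synthase, had 616, 767 and 691 CPM in CB1 libraries, against 694, 644 and 665 CPM in Vector libraries. These overlapped, and the log2 change of 0.05 ± 0.082 did not pass the threshold (edgeR adjusted p = 0.634).

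Both arms were set against each other within each library. The summed FPKM of the 4 fatty acid enzymes ACLY, ACSS2, ACACA and FASN was 157, 192 and 177 in CB1 libraries, against 201, 200 and 201 in Vector libraries. The ratio of the sterol to the fatty acid enzymes was 1.80, 1.35 and 1.40 in CB1 libraries, against 1.83, 1.91 and 1.89 in Vector libraries. CB1 replicate 1 lay near the Vector libraries, and the groups did not overlap (difference of log2 ratios -0.32, exact permutation p = 0.1, the smallest possible). The difference was -0.45 without CB1 replicate 1, -0.24 without CB1 replicate 2 and -0.27 without CB1 replicate 3, and without GGPS1 it was -0.32.

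**Figure D4:**
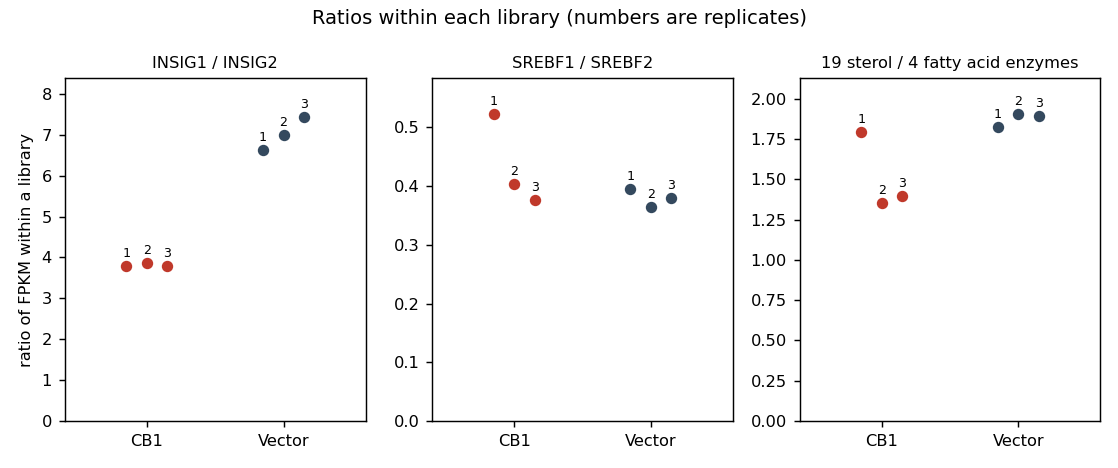
Ratios of FPKM within each library, CB1 left of Vector, with the replicate number above each point. The INSIG1 to INSIG2 ratio is 3.79 to 3.87 in CB1 libraries and 6.63 to 7.44 in Vector libraries, and CB1 replicate 1 stands apart from the other CB1 libraries in the SREBF1 to SREBF2 ratio and in the ratio of sterol to fatty acid enzymes.

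CB1 replicate 1 differed from the other CB1 libraries in these genes, though not in these alone. VIM, for example, had 2360 CPM in CB1 replicate 1, against 1845 and 1872 CPM in CB1 replicates 2 and 3. Relative to the mean of its group, the median log2 deviation of the 19 sterol enzymes was 0.12 in CB1 replicate 1, -0.04 in CB1 replicate 2 and -0.03 in CB1 replicate 3, where that of all genes tested was 0.0066, -0.0023 and 0.0072. TMM scaling holds the median of all genes near 0, so that median cannot show how far other genes deviated. Without CB1 replicate 1, 27 of the 33 genes fell, where 28.9% of all genes tested fell, and 2 rose, where 27.6% of all genes rose. Those that rose were SCAP and FASN (FASN log2 change 0.13, edgeR adjusted p = 0.0222). Of the 19 enzymes 18 fell.

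Related genes of the pathway were read from the fit of all 6 libraries, in which 24.4% of all genes tested rose and 25.4% fell. Of 8 electron donors and auxiliary proteins of the sterol enzymes, 7 were tested, 4 fell and 1 rose (median log2 change -0.32). CYB5B, a cytochrome, and LBR, a nuclear envelope protein with sterol reductase activity, fell (log2 change -0.32 and -0.33), and CYB5R3, a cytochrome reductase, rose (0.36). Of 13 genes that use isoprenoids for other products, 6 rose and 1 fell (median 0.21). RABGGTA, a subunit of a prenyltransferase of RAB proteins, ICMT, which methylates prenylated proteins, and PDSS1, of coenzyme Q synthesis, rose by log2 changes of 0.68, 0.44 and 0.53.

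Of 10 genes for the degradation and retention of pathway proteins, 0 rose and 2 fell in the edgeR test (1 higher and 3 lower at an unadjusted p under 0.05, median log2 change -0.12), a share of falls below that of all genes. The 2 were ERLIN2, of the endoplasmic reticulum degradation machinery, at -0.56 and PAQR3, a Golgi anchor of SCAP, at -0.35. Of 12 genes of sterol storage, traffic and efflux, 9 were tested, 2 rose and 1 fell (median -0.14). NR1H2, an oxysterol receptor, and SCARB1, a lipoprotein receptor, rose by 0.70 and 0.49, and SOAT1, which esterifies cholesterol, changed by -0.23. Of 12 other SREBP-1 and fatty acid genes, 3 rose and 3 fell (median 0.02), shares close to those of all genes. SCD, the stearoyl-CoA desaturase, had 288, 350 and 340 CPM in CB1 libraries, against 696, 683 and 705 CPM in Vector libraries, a 2.13-fold fall. FADS2, another desaturase, also fell (log2 change -0.32, edgeR adjusted p = 0.00122). In blots, which measure protein and not RNA, the study reported higher SCD1 and FADS2 with CB1 overexpression. ME1, malic enzyme, fell 1.37-fold, and SLC25A1, the mitochondrial citrate carrier, was 1.52-fold higher in CB1 cells.

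Some of the 33 genes share exon bases with another gene or have pseudogenes, so their counts are uncertain. CYP51A1 shares 83.2% of its exon bases, ACAT2 52.3%, GGPS1 41.0%, FDPS 18.6%, HMGCS1 14.95%, IDI1 14.8%, MBTPS2 13.4% and TMEM97 11.9%, and the pseudogenes of HSD17B7 held 9.79% as many counts as the gene. Of the pseudogenes, HSD17B7P2 fell as HSD17B7 did (log2 change -1.39). Without the 9 genes with more than 10% shared bases or with pseudogene counts, 15 of 24 fell, against 25.4% of all genes tested. SCAP rose, and the median log2 change of the 24 was -0.48. This selection was made after seeing the data.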

How the data were processed

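Gene expression was measured in 3 CB1 and 3 Vector libraries, grouped by their titles. The study's methods state oligo(dT) selection of poly(A) RNA and the use of uniquely mapped reads in exons. HISAT2 2.0.5 was named by the submitters' processing notes, as was featureCounts 1.5.0-p3. If strand was used is not given in the sources read here. The authors deposited raw counts per gene. They also deposited FPKM, which equalled the count divided by gene length and library total, times 1 constant per library. All 58735 identifiers and their coordinates equalled GENCODE 29, a GRCh38 annotation.

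Counts were tested with the quasi-likelihood test of edgeR 4.0.16 in R 4.3.3, with TMM scaling, for the 15289 genes that averaged 0.5 FPKM or more. Two-sided p-values were adjusted over these genes by the Benjamini-Hochberg method. The SE is the log2 change divided by the root of F. The common biological coefficient of variation was 8.51%. The procedure was tested on simulated data. The gene set, lists, motifs and tests were chosen with earlier results of these data known. Values in every library are given for SREBF1, SREBF2, SCAP, INSIG1 and INSIG2, for up to 4 genes of each other role with the smallest p and for genes that rose. MBTPS2, GGPS1, CYP51A1, FASN and SCD were added after their values were seen. Of related lists, up to 3 called genes with the smallest p are named, and FADS2 was added after its value was seen. Alternatives were other abundance minimums, scalings and pseudocounts, DESeq2 1.42.0, limma and limma-voom 3.58.1, a replicate block and each library left out in turn.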

Additional observations from a re-analysis of the deposited data

How the results depend on the processing

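Of 495 values, from 33 genes under 15 alternatives, 458 kept their direction and side of the threshold, 5 calls were lost, 15 were gained and 17 changed sign, all of these last in genes that had not passed the threshold. For 20 genes nothing changed. The number that fell was 26 with library totals alone, 23 with no abundance minimum, 20 with limma on log2(FPKM + 0.1) and 21 with DESeq2, limma-voom, median-of-ratios scaling or a minimum of 1 FPKM. With each library left out in turn it was 19 to 27, and the number that rose was 1 to 2. Library totals alone moved the median of all genes to -0.08 and the share of calls that were higher to 39.4%, against 49.0% with TMM. With no minimum the median of 34122 genes was 0.17. The sign of SREBF1 changed with library totals (-0.070), limma on log2(FPKM + 0.1) (-0.012), limma on log2(FPKM + 1) (-0.010) and no minimum (-0.034), and ran from -0.074 to 0.11 with a library left out. INSIG2 was -0.0075 with library totals. PMVK was 0.00029 with DESeq2, 0.00013 with median-of-ratios scaling and -0.11 to 0.050 with a library left out. EBP ran from -0.19 to 0.048 and FASN from -0.031 to 0.13 with a library left out, and FASN was -0.028 with library totals. The cause of these changes was not tested. Same-numbered libraries did not share deviations from their group means (correlations -0.14, -0.08 and -0.03), which cannot show if they were prepared in pairs. With the replicate block 21 genes fell and 1 rose. Pairing by replicate number leaves the 3 log2 ratio differences at -0.88, 0.18 and -0.32 by arithmetic, with exact permutation p of 0.25, 0.5 and 0.25, where 0.25 is the smallest that 3 pairs allow.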
